A study of Homo sapiens with 24 samples.

Results

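The expression of 10 genes of the integrated stress response was followed across 6 groups of AGS, a long-established line from a human gastric adenocarcinoma: ATF4, ATF5, ATF3, DDIT3, TRIB3, DDIT4, SESN2, CHAC1, ASNS and INHBE. They are 10 of the 23368 genes in the count table, were matched by symbol, and all 10 passed the filter on low counts. The genes were chosen by their levels in treated against control libraries of these same samples, so their differences from control are given as a description, without p-values. The groups were a control whose labelled treatment is none, PI103 at 0.7 µM (an inhibitor of PI3 kinase and mTOR), PD0325901 at 0.035 µM (a MEK inhibitor), (5Z)-7-oxozeaenol at 0.5 µM (a TAK1 inhibitor, called oxozeaenol from here on), and the combinations PI103+oxozeaenol and PI103+PD0325901. In both combinations each agent was given at 50% of its single-agent concentration, so a combination differs from a single agent in dose as well as in partner. Every group was collected at 24 h, had 4 libraries and carried no other labelled change. The labels give the genotype as wild type, do not say whether the control received vehicle, and name as batch the number of the replicate. Titles gave the groups, since the numbers inside the compound names climb by 1 per replicate in the treatment labels.

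The integrated stress response begins with kinases that phosphorylate the translation factor eIF2 when amino acids run short, proteins misfold in the endoplasmic reticulum, haem is lacking or double-stranded RNA appears. Most translation then slows, while the mRNA of the transcription factor ATF4 is translated better, and ATF4 with its partners switches on genes for amino acid supply, redox balance and feedback control. In growing tumour cells, signalling through mTORC1 is also known to raise ATF4. An mRNA level does not measure ATF4 protein or eIF2 phosphorylation, and neither was measured here.

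The libraries held from 38057638 to 84226380 counts assigned to genes. Summed levels of the epithelial markers EPCAM, KRT8, KRT18 and KRT19 ran from 5070 to 5975 counts-per-million (CPM) in control and from 4353 to 7461 in the treated groups. Of 5 markers of other cell types, PTPRC (0 to 7 counts) and PECAM1 (1 to 10 counts) were close to absent. The sum over all 5, nearly all of it COL1A1 and VIM, was 18.9 to 23.2 CPM in control, 48.5 to 51.5 with PI103, 28.9 to 34.5 with PD0325901, 15.7 to 16.8 with oxozeaenol, 20.2 to 22.4 with PI103+oxozeaenol, and 37.2 to 41.9 with PI103+PD0325901. The part of this shift in the results below was not tested. In bulk libraries, fewer cells that express a gene and less RNA per cell cannot be told apart.

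The genes lie on 8 chromosomes in GENCODE 29 (GRCh38): ATF4 at chr22:39519695-39522685, ATF5 at chr19:49928702-49933935, ATF3 at chr1:212565334-212620777, DDIT3 at chr12:57516588-57521737, TRIB3 at chr20:362835-397559, DDIT4 at chr10:72273920-72276036, SESN2 at chr1:28259527-28282491, CHAC1 at chr15:40952962-40956519, ASNS at chr7:97852118-97872542 and INHBE at chr12:57452323-57459280. Some counts are uncertain because exons overlap those of a neighbour and the sources do not say whether counting used strand. Of the exon bases, 41.2% of DDIT4 lie opposite DDIT4-AS1, 27.2% of DDIT3 opposite MARS, 21.2% of ATF5 opposite NUP62, and 44.6% of ASNS on the same strand as the transcript AC079781.5.

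ATF4 and its partners bind the C/EBP-ATF response element, so the start regions of the genes were searched for its core, TGATGNAA, on both strands. RefSeq windows (GRCh38.p14) running from 250 bases before to 50 after a transcription start were held for 9 of the 10 genes, in 17 windows; INHBE had none. The core was in 3 of these 17 windows, in ASNS, CHAC1 and ATF3, against 3.62% of all 35116 windows. The following 100-base stretches are printed 5′ to 3′ on the strand of the gene, with the core in capitals. They come from chr7:97872427-97872526 (minus strand), chr15:40953221-40953320 (plus) and chr1:212565166-212565265 (plus), and the last, from chr20:381195-381294 (plus), is shown because TRIB3 fell to some of the lowest counts and holds no match.
ASNS: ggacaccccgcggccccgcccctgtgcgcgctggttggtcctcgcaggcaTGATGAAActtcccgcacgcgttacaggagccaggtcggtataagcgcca
CHAC1: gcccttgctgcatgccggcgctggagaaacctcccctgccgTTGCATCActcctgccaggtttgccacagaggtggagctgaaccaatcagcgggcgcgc
ATF3: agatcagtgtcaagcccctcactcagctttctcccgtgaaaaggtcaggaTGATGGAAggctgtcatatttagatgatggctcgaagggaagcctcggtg
TRIB3: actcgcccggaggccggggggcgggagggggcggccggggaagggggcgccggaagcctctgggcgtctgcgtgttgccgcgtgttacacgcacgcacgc
The match began 68 bases before the start in ASNS, 209 before it in CHAC1, where it reads on the opposite strand, and 191 before it in ATF3. The AP-1 site TGANTCA was in 3 of the 17 windows, in DDIT3 and ATF5, and in 7.71% of all windows. The overlapping windows of DDIT3 hold the same site. The cAMP response element TGACGTCA (1.85% of all windows) and the ER stress response element (0.0769%) were in none of the 9. A match is only a run of letters in this window, and sites elsewhere in a gene were not searched.

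All 10 genes were lower than control in each of the 5 treatments, and no treated library reached the lowest control library for any of them. For every gene but ATF3 the group means were lower in the 3 groups with PI103 than with PD0325901 or oxozeaenol alone. The levels of ATF4, ATF5 and ATF3 were more even across treatments than those of the other genes. The median log2 fold change of the 10 genes against control was -4.81 for PI103, -1.93 for PD0325901, -2.03 for oxozeaenol, -3.75 with PI103+oxozeaenol and -4.34 with PI103+PD0325901. Over all 13947 genes tested the same medians were between -0.02 and 0.02. At an adjusted p under 0.05 (edgeR's quasi-likelihood test), 10 of 10 were called lower and 0 higher in each treatment. Over all genes tested, 25.2% were called lower and 26.2% higher with PI103, 29.9% and 28.7% with PD0325901, 26.1% and 25.7% with oxozeaenol, 27.9% and 27.7% with PI103+oxozeaenol, and 32.6% and 32.2% with PI103+PD0325901. Nothing is read from the 10 of 10 or from the lack of overlap with control, since these differences chose the genes. The 5 comparisons share the 4 control libraries. Without PD0325901 replicate 2, CHAC1 was no longer called with PD0325901 (log2 fold change -1.20 in place of -1.40).

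**Figure D1:**
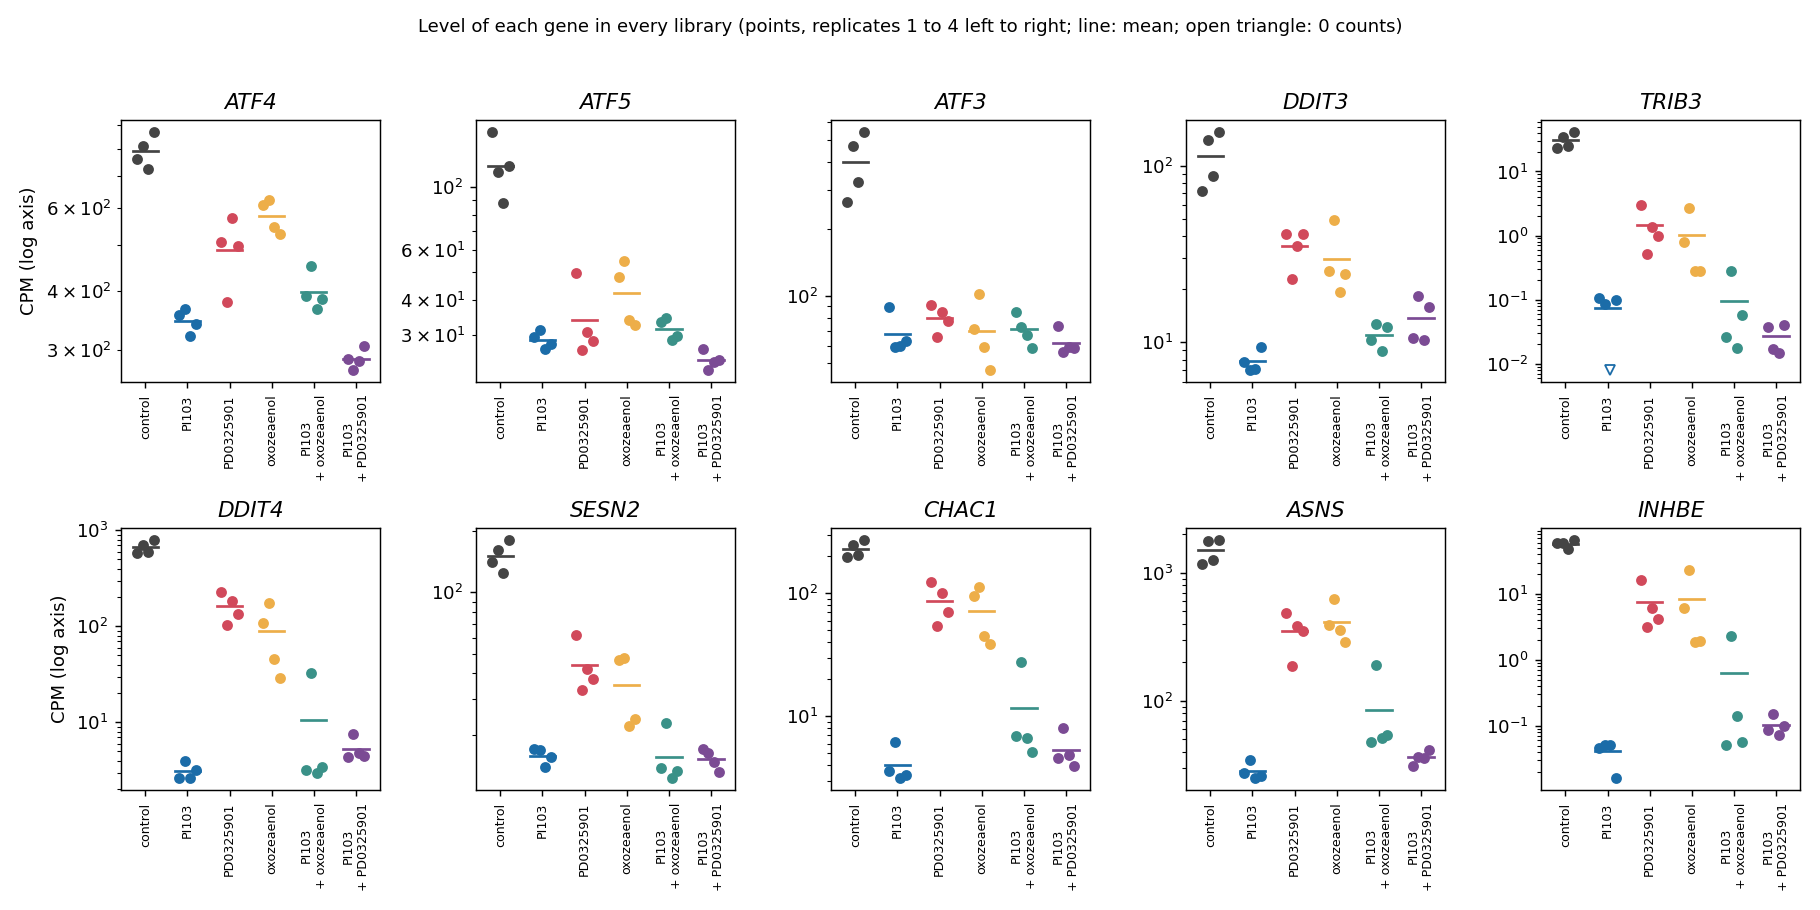
Level of each gene in CPM (log axes that differ between panels) in all 24 libraries; points are libraries, replicates 1 to 4 from left to right within a group, lines are group means and the open triangle is a library with 0 counts. For every gene the 4 control libraries lie above all 20 treated libraries.

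**Figure D2:**
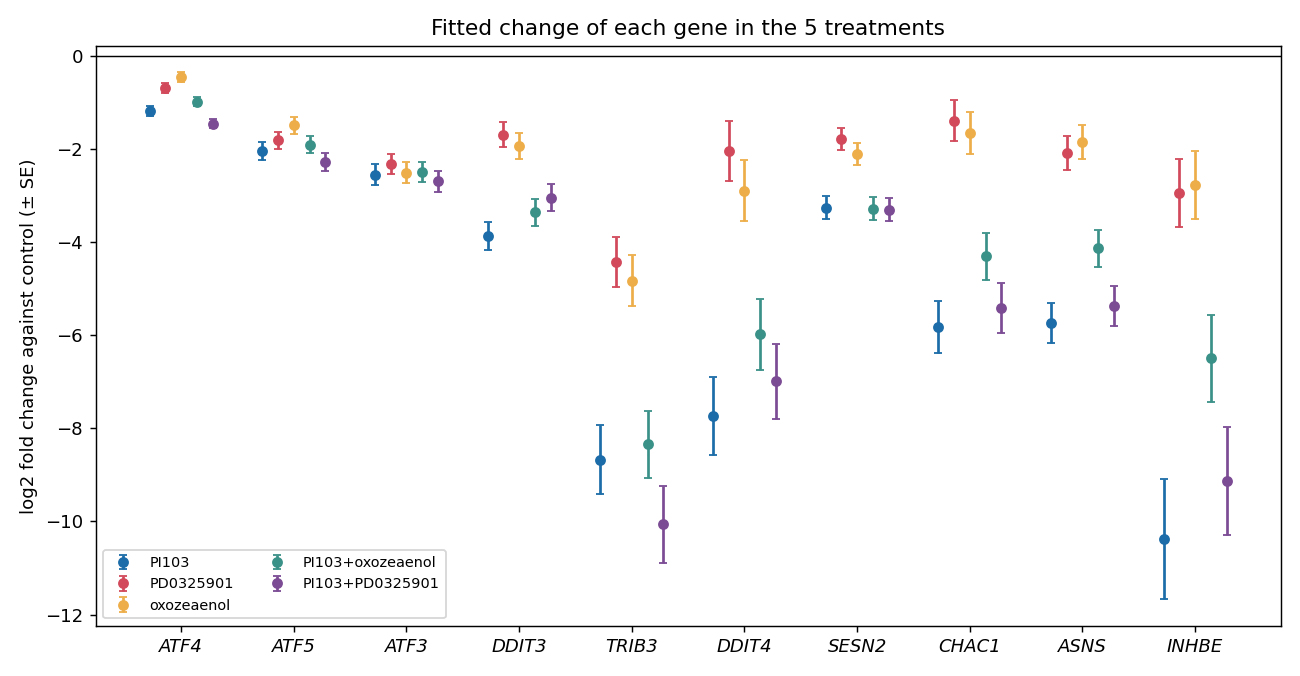
Fitted log2 fold change against control (vertical axis) of each gene in the 5 treatments, with bars of 1 standard error worked back from the F test. ATF4, ATF5 and ATF3 stay between -2.69 and -0.46 in every treatment, while TRIB3 and INHBE reach -8.68 and -10.38 with PI103, fits that rest on very few counts.

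ATF4 is the central transcription factor of the response. Its mRNA was at 759, 810, 726 and 868 CPM in control replicates 1 to 4. It was at 609, 622, 546 and 528 with oxozeaenol and at 508, 380, 572 and 498 with PD0325901. With PI103 the libraries held 357, 367, 321 and 340, with PI103+oxozeaenol 391, 451, 366 and 385, and with PI103+PD0325901 287, 272, 285 and 306. All treated libraries were below all control libraries, and the 4 libraries of PI103+PD0325901 were below every other library. The group mean was 1.37-fold lower than control with oxozeaenol, 1.62-fold with PD0325901, 1.99-fold with PI103+oxozeaenol, 2.28-fold with PI103 and 2.75-fold with PI103+PD0325901. In the order of levels, oxozeaenol and PD0325901 overlapped (adjusted p = 0.0783), as did PI103+oxozeaenol and PI103 alone (adjusted p = 0.167, edgeR). The ranges of PD0325901 and PI103+oxozeaenol overlapped too, a pair that was not tested.

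ATF5 and ATF3 are basic leucine zipper factors related to ATF4, ATF5 being translated under stress by a like mechanism and ATF3 being induced by many stresses. ATF5 held 157, 113, 87.7 and 119 CPM in control. The other groups held 29.6, 31.2, 26.8 and 27.8 with PI103, 49.6, 26.5, 30.8 and 28.5 with PD0325901, 47.9, 55.0, 33.9 and 32.6 with oxozeaenol, 33.4, 34.6, 28.8 and 29.7 with PI103+oxozeaenol, and 26.7, 22.6, 24.1 and 24.4 with PI103+PD0325901. Neighbouring treated groups overlapped, apart from PI103 and PI103+PD0325901, whose difference did not pass the test (adjusted p = 0.318, edgeR). The fold below control ran from 2.81 with oxozeaenol to 4.87 with PI103+PD0325901.

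ATF3 was the most even of the 10 across treatments. Control libraries held 263, 468, 325 and 543 CPM, and the 20 treated libraries held from 46.7 to 103. The treated means were 67.9 ± 14.4 (SD, n = 4) for PI103, 79.9 ± 11.0 for PD0325901, 70.0 ± 24.0 for oxozeaenol, 70.9 ± 11.3 with PI103+oxozeaenol, and 61.8 ± 7.68 with PI103+PD0325901. All neighbours in this order overlapped, and the fold below control lay between 5.00 and 6.47.

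DDIT3 encodes CHOP, a factor downstream of ATF4 that is linked to cell death when stress persists. Its control libraries held 72.4, 140, 88.2 and 156 CPM. With PI103 they held 7.73, 6.99, 7.05 and 9.42, with PI103+oxozeaenol 10.4, 12.7, 8.97 and 12.3, and with PI103+PD0325901 10.6, 18.4, 10.3 and 15.9. PD0325901 alone left 41.3, 23.0, 35.1 and 41.1, and oxozeaenol alone 25.3, 49.1, 19.4 and 24.4. The 12 libraries with PI103 were all below the 8 with a single other agent. The group means were 14.6-fold below control with PI103, 10.3-fold with PI103+oxozeaenol, 8.27-fold with PI103+PD0325901, 3.86-fold with oxozeaenol and 3.25-fold with PD0325901.

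TRIB3, a pseudokinase that ATF4 and CHOP induce and that restrains them in turn, was close to absent from the counts in the groups with PI103. Control libraries held 23.5, 34.6, 24.8 and 41.5 CPM. The raw counts were 7, 5, 0 and 6 with PI103, 2, 17, 1 and 3 with PI103+oxozeaenol, and 3, 1, 1 and 2 with PI103+PD0325901. Every library of the last group was thus at or under 3 counts. PD0325901 left 3.00, 0.515, 1.35 and 0.977 CPM, and oxozeaenol 0.800, 2.68, 0.284 and 0.282. From counts summed over a group, with 95% intervals that cover counting error only, TRIB3 was 420-fold lower with PI103 (265 to 708) and 1146-fold lower with PI103+PD0325901 (556 to 2852). It was 333-fold lower with PI103+oxozeaenol (222 to 526), or 967-fold (444 to 2636) without replicate 2 of that group. The ratio was 22.0 with PD0325901 and 25.8 with oxozeaenol, or 64.5 without oxozeaenol replicate 2.

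DDIT4 (REDD1) and SESN2 (sestrin 2) both restrain mTORC1, and DDIT4 spanned a wide range. DDIT4 held 584, 703, 593 and 792 CPM in control and 2.63, 3.99, 2.64 and 3.20 with PI103. With PI103+PD0325901 it held 4.34, 7.51, 4.79 and 4.45, and with PI103+oxozeaenol 3.16, 32.6, 2.95 and 3.45. These levels are far below those of PD0325901 (227, 102, 185 and 133) and, save for the library at 32.6, of oxozeaenol (109, 173, 45.8 and 29.2). The group mean was 214-fold below control with PI103, 127-fold with PI103+PD0325901, 7.48-fold with oxozeaenol and 4.13-fold with PD0325901. It was 63.3-fold below control with PI103+oxozeaenol, or 209.6-fold without replicate 2.

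SESN2 fell less far, from 140, 161, 125 and 180 CPM in control to 17.0, 16.8, 13.9 and 15.5 with PI103. The combinations stood at the same height, with 13.8, 22.8, 12.3 and 13.3 when oxozeaenol was added and 17.0, 16.3, 14.7 and 13.1 when PD0325901 was added. PD0325901 alone left 62.0, 33.4, 42.2 and 37.6, and oxozeaenol alone 46.4, 47.7, 22.0 and 24.0. The 3 groups with PI103 were 9.59-fold to 9.92-fold below control and overlapped each other, and the other 2 were 3.46-fold and 4.33-fold below.

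CHAC1 breaks down glutathione and is a target of the ATF4 and CHOP arm. It held 197, 247, 204 and 270 CPM in control, 124, 54.1, 101 and 70.8 with PD0325901, and 94.4, 112, 44.8 and 38.6 with oxozeaenol. It held 3.58, 6.14, 3.15 and 3.34 with PI103 and 4.59, 8.05, 4.89 and 3.92 with PI103+PD0325901, 2 groups that overlapped. With PI103+oxozeaenol 3 libraries held 6.91, 6.69 and 5.17 and replicate 2 held 27.7. The group means were 2.63-fold below control with PD0325901, 3.17-fold with oxozeaenol, 56.6-fold with PI103 and 42.8-fold with PI103+PD0325901. The fold was 19.8 with PI103+oxozeaenol, or 36.7 without replicate 2.

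ASNS, asparagine synthetase, was the most abundant of the 10 in control, at 1162, 1767, 1269 and 1798 CPM. It was at 27.3, 34.1, 24.9 and 25.8 with PI103 and at 30.7, 36.6, 35.8 and 41.1 with PI103+PD0325901. With PI103+oxozeaenol it was at 47.2, 189.0, 50.7 and 53.7, so that all 4 libraries lay above those of the other combination. PD0325901 left 487, 188, 382 and 349, and oxozeaenol 391, 619, 354 and 290. The group means were 53.5-fold below control with PI103, 41.6-fold with PI103+PD0325901, 4.27-fold with PD0325901 and 3.63-fold with oxozeaenol. The fold was 17.6 with PI103+oxozeaenol, or 29.6 without replicate 2.

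INHBE encodes the inhibin beta E chain, a secreted protein of the activin family. Control libraries held 58.8, 58.5, 47.8 and 65.7 CPM, while the raw counts with PI103 were 3, 3, 3 and 1, all at or under 3. The raw counts were 7, 9, 5 and 5 with PI103+PD0325901 and 4, 139, 8 and 3 with PI103+oxozeaenol. PD0325901 left 16.6, 3.18, 6.11 and 4.17 CPM, and oxozeaenol 6.14, 23.1, 1.90 and 1.94. From summed counts, INHBE was 1394-fold lower than control with PI103 (95% counting interval 758 to 2907), 569-fold with PI103+PD0325901 (389 to 872), 7.99-fold with PD0325901 (12.5-fold without replicate 1) and 5.76-fold with oxozeaenol (16.2-fold without replicate 2). It was 91.8-fold lower with PI103+oxozeaenol (78.4 to 108), a value set by replicate 2, without which it was 714-fold lower (433 to 1276).

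Per kilobase of coding transcript (GENCODE 29 basic set), the mean control level was highest for ASNS at 602 CPM, followed by DDIT4 at 382, ATF4 at 315, ATF3 at 158, CHAC1 at 112, DDIT3 at 87.2, ATF5 at 46.3, SESN2 at 43.9, INHBE at 23.8 and TRIB3 at 10.7. The falls did not follow this order: DDIT4 and ASNS, both abundant, and TRIB3 and INHBE, the least abundant, had deep falls with PI103, while ATF4 and ATF3 had shallow ones.

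The comparisons among treated groups use no control level, although the control libraries enter the estimate of the spread. The treated libraries compared also served in choosing the genes, so the p-values below are not free of that choice. A fit of only the groups compared is named below where it changed a call. Summed over its libraries, TRIB3 held 18 counts with PI103, 23 with PI103+oxozeaenol and 7 with PI103+PD0325901. INHBE held 10, 154 and 26 in the same order. The sizes of their fitted differences below are therefore poorly determined and are not ranked against those of the other genes. PI103 was set against PD0325901 first: 8 of the 10 genes were lower with PI103 and 0 higher, where 22.9% of all genes tested were called lower and 21.7% higher. INHBE differed by -7.44 ± 1.36 (log2 fold change ± SE, adjusted p = 0.000171, edgeR) and DDIT4 by -5.70 ± 0.77 (adjusted p = 6.59e-06). Each SE was worked back from the F test and is not the model's own. CHAC1 differed by -4.43 ± 0.52, TRIB3 by -4.25 ± 0.82, ASNS by -3.65 ± 0.39, DDIT3 by -2.17 ± 0.28, SESN2 by -1.47 ± 0.23 and ATF4 by -0.50 ± 0.10, with adjusted p-values from 1.53e-07 to 0.000228. In all 8 the ranges of the 2 groups did not overlap, and the share of all genes without overlap was not counted. ATF3 (-0.23 ± 0.21, adjusted p = 0.388) and ATF5 (-0.23 ± 0.18, adjusted p = 0.316) did not pass the test.

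Against oxozeaenol, 9 of 10 were lower with PI103, where 22.5% of all genes were called lower. INHBE differed by -7.62 ± 1.34, DDIT4 by -4.84 ± 0.75, CHAC1 by -4.16 ± 0.51, ASNS by -3.88 ± 0.40 and TRIB3 by -3.85 ± 0.85. DDIT3 differed by -1.93 ± 0.28, SESN2 by -1.15 ± 0.23 and ATF4 by -0.74 ± 0.10, and the adjusted p-values of these 8 ran from 1.04e-07 to 0.000981 (edgeR). ATF5 was also called (-0.56 ± 0.18, adjusted p = 0.0157), but not without oxozeaenol replicate 2 (adjusted p = 0.0779). Without that replicate INHBE differed by -6.30 and TRIB3 by -2.65, both still called, and without PD0325901 replicate 1 the INHBE difference from PD0325901 was -6.74. ATF3 did not pass the test (-0.04 ± 0.21, adjusted p = 0.886).

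Between oxozeaenol and PD0325901, edgeR called 0 of the 10 genes, where 28.5% of all genes tested were called in either direction. At an unadjusted p under 0.05 there was 1 gene, and DESeq2's Wald test also called 0. The ranges of the 2 groups overlapped for all 10, and the share of all genes with such overlap was not counted. The largest fitted difference was that of DDIT4 (-0.85 ± 0.62, adjusted p = 0.313), with 6 genes lower and 4 higher with oxozeaenol. These standard errors, up to 0.71 for INHBE, leave room for differences of a size that this design would not call. Without oxozeaenol replicate 2, TRIB3 was called lower with oxozeaenol (-1.60, adjusted p = 0.0272). Leaving out PD0325901 replicate 1 made ATF5 pass the test (0.55, adjusted p = 0.017), and leaving out PD0325901 replicate 3 made ATF4 pass (0.32, adjusted p = 0.0212).

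**Figure D3:**
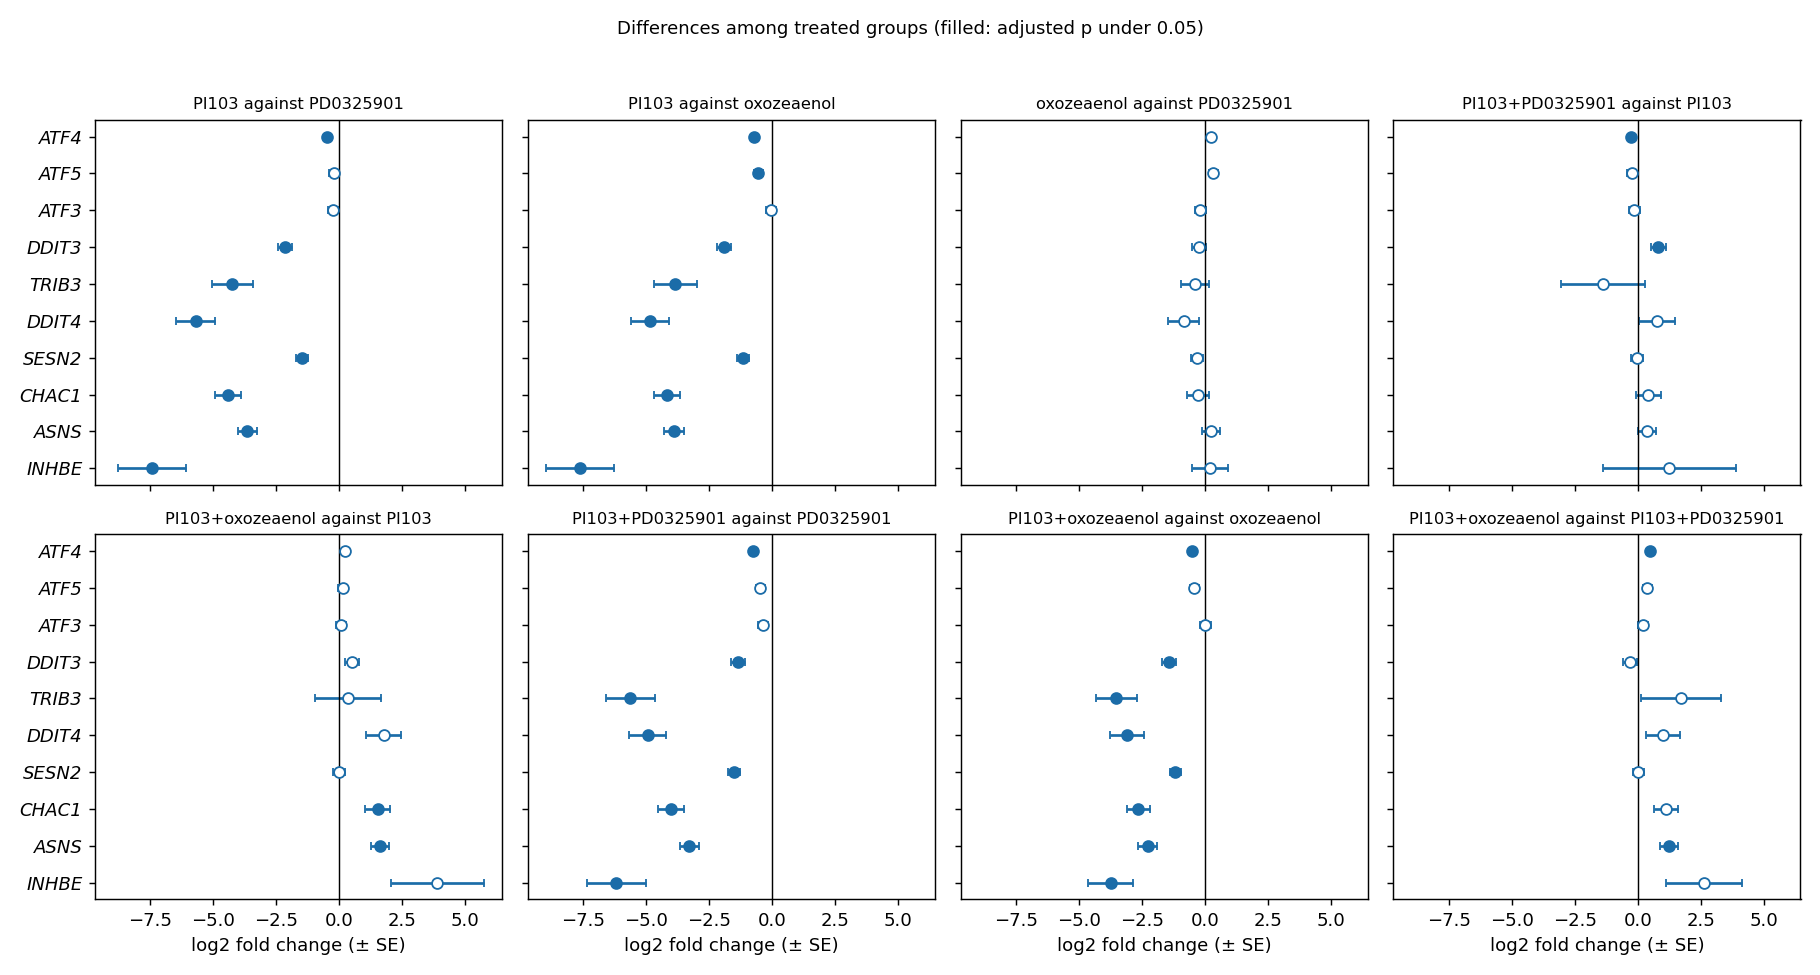
Fitted log2 fold change (horizontal axis) of each gene in 8 comparisons between treated groups, with bars of 1 standard error worked back from the F test. Filled points have an adjusted p under 0.05 and open points do not. PI103 differs from PD0325901 in 8 genes and from oxozeaenol in 9, while no point is filled between oxozeaenol and PD0325901. Where a group with PI103 is compared, the points of TRIB3 and INHBE rest on few counts.

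Adding PI103 to either other agent, with each at 50% dose, again lowered most of the genes below that agent alone. With PI103+PD0325901, 8 of 10 were lower than with PD0325901, where 10.0% of all genes were called lower. These were INHBE (-6.18 ± 1.17), TRIB3 (-5.63 ± 0.97), DDIT4 (-4.94 ± 0.74), CHAC1 (-4.02 ± 0.51), ASNS (-3.29 ± 0.39), SESN2 (-1.52 ± 0.23), DDIT3 (-1.35 ± 0.27) and ATF4 (-0.77 ± 0.10), with adjusted p-values from 7.08e-06 to 0.00167 (edgeR). ATF5 did not pass (-0.47 ± 0.18, adjusted p = 0.0728), though it did with the replicate number as a block (adjusted p = 0.0227), by DESeq2's Wald test (adjusted p = 0.0393) and without PD0325901 replicate 2 (adjusted p = 0.0342). ATF3 did not pass either (-0.37 ± 0.21, adjusted p = 0.231). INHBE differed by -5.47 without PD0325901 replicate 1.

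With PI103+oxozeaenol, 8 of 10 were lower than with oxozeaenol, where 7.28% of all genes were called lower. ASNS differed by -2.28 ± 0.37 (adjusted p = 0.000298, edgeR), CHAC1 by -2.64 ± 0.47 (adjusted p = 0.000935) and DDIT4 by -3.08 ± 0.67 (adjusted p = 0.00464). DDIT3 (-1.43 ± 0.28), SESN2 (-1.18 ± 0.23) and ATF4 (-0.53 ± 0.10) were lower as well. Without replicate 2 of the combination the differences of ASNS, CHAC1 and DDIT4 were -3.04, -3.53 and -4.82. INHBE (-3.73 ± 0.89, adjusted p = 0.00852) and TRIB3 (-3.51 ± 0.81, adjusted p = 0.00589) depended on 2 libraries: the differences were -6.68 and -5.00 without replicate 2 of the combination, and -2.41 (adjusted p = 0.0556) and -2.31 (adjusted p = 0.0501) without oxozeaenol replicate 2. In the fit of only the groups compared, the calls of CHAC1, DDIT4 and INHBE ended (adjusted p = 0.051, 0.114 and 0.134). ATF5 did not pass the test (-0.42 ± 0.18, adjusted p = 0.114) but did with the replicate number as a block (adjusted p = 0.0365), and ATF3 did not pass (0.02 ± 0.21, adjusted p = 0.968).

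The combinations were next set against PI103 alone at full dose. With PI103+oxozeaenol 2 of 10 were higher and 0 lower, where 9.39% of all genes were called higher and 8.92% lower. ASNS was higher by 1.60 ± 0.37 (adjusted p = 0.00335, edgeR), and by 0.85 (adjusted p = 0.0172) without replicate 2 of the combination, but the call ended in the fit of only the groups compared (adjusted p = 0.0684). CHAC1 was higher by 1.52 ± 0.48 (adjusted p = 0.0344), a call that ended without that replicate (0.63, adjusted p = 0.249) and also without PI103 replicate 1, 3 or 4 (adjusted p from 0.0811 to 0.094), with no count filter (adjusted p = 0.0646) and in the fit of only the groups compared (adjusted p = 0.131). DDIT4 at 1.76 ± 0.69 and INHBE at 3.88 ± 1.84 did not pass (adjusted p = 0.0857 and 0.156), and without that replicate they stood at 0.03 and 0.94. INHBE was called by DESeq2's Wald test (adjusted p = 0.00172), and DDIT3 in the fit of only the groups compared (0.49, adjusted p = 0.00654).

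With PI103+PD0325901, ATF4 was lower than with PI103 (-0.27 ± 0.10, adjusted p = 0.036, edgeR) and DDIT3 higher (0.82 ± 0.28, adjusted p = 0.0233), where 19.9% of all genes were called lower and 18.8% higher. A count of 1 in 10 each way is not above those shares. For both genes the ranges of the 2 groups did not overlap. The ATF4 call ended in 5 of the 8 fits that leave out a library (PI103 replicate 1 or 2, or replicate 1, 2 or 3 of the combination; highest adjusted p = 0.0959). The DDIT3 call ended in 4 (PI103 replicate 2 or 3, or replicate 2 or 4 of the combination; highest adjusted p = 0.117). Both calls also ended with no count filter (adjusted p = 0.0556 and 0.0574). The other 8 did not pass, with DDIT4 at 0.76 ± 0.70 and SESN2 at -0.05 ± 0.23. In the fit of only the groups compared, DDIT4, ASNS and ATF5 passed as well (adjusted p = 0.00941, 0.0226 and 0.0382).

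Between the combinations, 2 of 10 were higher and 0 lower with oxozeaenol than with PD0325901 as partner, where 15.6% of all genes were called higher and 14.3% lower. A count of 2 in 10 is near the share called higher. ATF4 was higher by 0.47 ± 0.10 (adjusted p = 0.000952, edgeR), with no overlap of the libraries. ASNS was higher by 1.24 ± 0.36 (adjusted p = 0.0127), and by 0.49 (adjusted p = 0.146) without replicate 2 of PI103+oxozeaenol. CHAC1 (1.11 ± 0.47) did not pass the test (adjusted p = 0.0833) and stood at 0.23 without that replicate. ATF5 (0.37 ± 0.18, adjusted p = 0.128) did not pass but did with the replicate number as a block (adjusted p = 0.0432) and in the fit of only the groups compared (adjusted p = 0.00702), and INHBE (2.63 ± 1.51, adjusted p = 0.202) did by DESeq2's Wald test (adjusted p = 0.0274).

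Because each agent was at 50% dose in a combination, the combinations were also set against the mean of the 2 single-agent log2 effects. That mean is what 50% of each log2 effect would give, and whether a 50% dose gives it was not tested. With PI103+PD0325901, 5 of 10 were below that mean, where 11.1% of all genes were called lower. They were ATF4 (-0.52 ± 0.09, adjusted p = 0.00021, edgeR), ASNS (-1.46 ± 0.33, adjusted p = 0.00355), CHAC1 (-1.81 ± 0.44, adjusted p = 0.00673), SESN2 (-0.78 ± 0.21, adjusted p = 0.00914) and DDIT4 (-2.09 ± 0.63, adjusted p = 0.0226). The DDIT4 call ended when any 1 library of the combination was left out (highest adjusted p = 0.06). TRIB3 did not pass (-3.51 ± 1.27, adjusted p = 0.0507), but did without PD0325901 replicate 2 (adjusted p = 0.0452) or PI103 replicate 3 (adjusted p = 0.0434), in the fit of only the groups compared (adjusted p = 0.00683) and by DESeq2's Wald test (adjusted p = 0.000853). INHBE (-2.46 ± 2.14, adjusted p = 0.437) passed in the same 2 fits (adjusted p = 0.0448 and 0.0303). ATF5 (-0.35 ± 0.16, adjusted p = 0.111) passed with the replicate number as a block (adjusted p = 0.0391). Of the 5 genes below the mean, ATF4 was also called lower than with PI103 alone (adjusted p = 0.036, edgeR). ASNS, CHAC1, SESN2 and DDIT4 were not called against PI103 alone (adjusted p from 0.422 to 0.892, edgeR).

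With PI103+oxozeaenol, edgeR called 0 of 10 against the mean of the single agents, where 3.98% of all genes were called in either direction. At an unadjusted p under 0.05 there was 1 gene, SESN2 (-0.60 ± 0.21, adjusted p = 0.11), and DESeq2's Wald test called 0. With the replicate number as a block, SESN2 was called (adjusted p = 0.0455). Without replicate 2 of the combination 4 genes were below the mean: DDIT4 (-2.39, adjusted p = 0.00236), ASNS (-1.09, adjusted p = 0.00686), CHAC1 (-1.45, adjusted p = 0.0132) and SESN2 (-0.85, adjusted p = 0.0216). Leaving out oxozeaenol replicate 4 also made SESN2 pass.

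In 4 of the 6 groups, 1 library was the highest for 9 or 10 of the genes. In PI103+oxozeaenol, replicate 2 was the highest library for 9 of 10 genes, against 26.1% of all genes tested, at a median of 2.74 times the mean of the other 3 libraries and 27.8 times for INHBE. Oxozeaenol replicate 2 was highest for 10 of 10 (16.4% of all genes), and PD0325901 replicate 2 lowest for 10 of 10 (33.0%), with replicate 1 of that group highest for 9 of 10 (19.4%). In control, replicate 4 was highest for 9 of 10 (26.4%). The other 2 groups did not show this: with PI103 the most frequent highest library was replicate 2, for 6 genes (27.4%), and with PI103+PD0325901 replicate 2, for 4 (29.7%). The same replicate number was thus high in 2 groups and low in another, and what differed in these cultures was not tested.

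**Figure D4:**
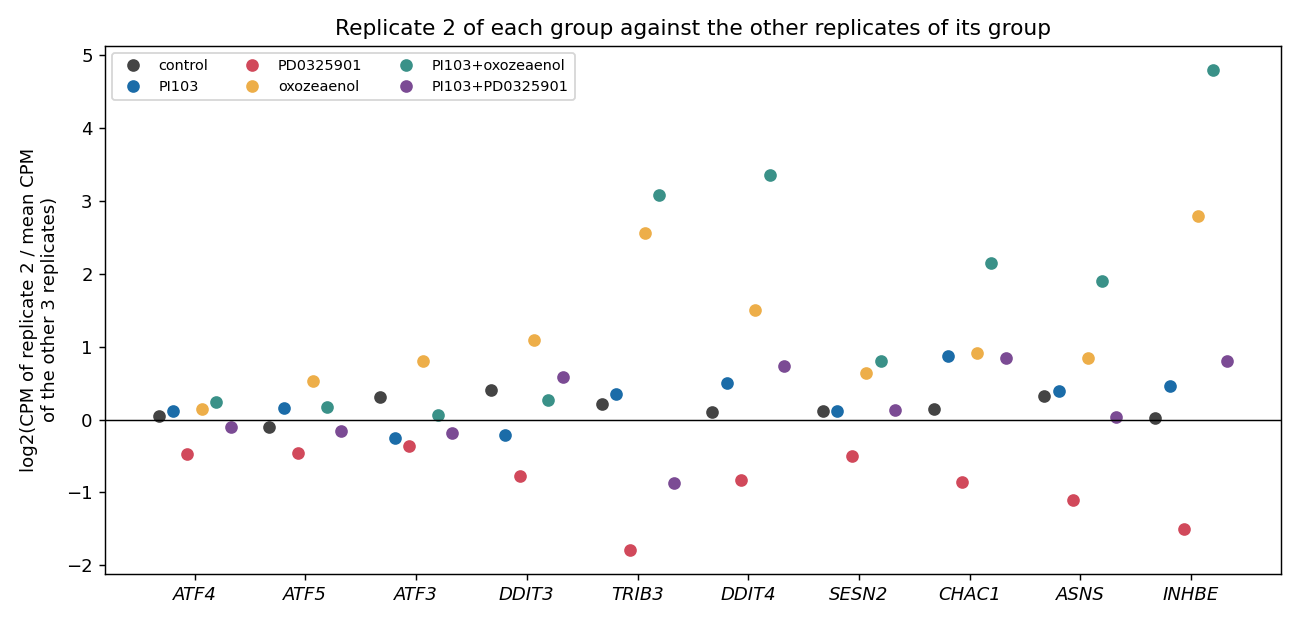
Log2 ratio of replicate 2 to the mean of the other 3 replicates of its group (vertical axis) for each gene, with 1 point per group. Points of PI103+oxozeaenol and of oxozeaenol lie above 0 for all 10 genes, those of PD0325901 lie below 0 for all 10, and the highest point, INHBE in PI103+oxozeaenol, is a ratio of 27.8.

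Other genes of the pathway were taken from lists of known members, whose counts against control are to be read beside the 25.2% to 32.6% of all genes called lower and the 25.7% to 32.2% called higher. Of 25 other ATF4 target genes 24 were tested, and 23 of them were lower with PI103, 22 under PD0325901, 22 under oxozeaenol, 23 with PI103+oxozeaenol and 23 with PI103+PD0325901, with 0 higher in any. Their median log2 fold changes were -2.93, -1.38, -1.22, -2.33 and -2.81 in the same order. FGF21, a secreted metabolic hormone, held 11.1 ± 3.61 CPM in control (SD, n = 4), 0.0120 ± 0.0149 with PI103 and no count in the 4 libraries of PI103+PD0325901, which allows up to 3 counts in each. STC2, the secreted stanniocalcin 2, went from 4.93 ± 0.95 in control to 0.445 ± 0.263 with PD0325901 and 0.00429 ± 0.00857 with PI103. SLC3A2, the heavy chain of amino acid exchangers, went from 562 ± 36.3 to 146.5 ± 13.5 with PI103 and 375 ± 43.0 with PD0325901. ALDH1L2, a mitochondrial folate enzyme, was at 0.168 ± 0.0662 in control and at 0.134 ± 0.0791 with PI103, and passed the test in no treatment.

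Between PI103 alone and PD0325901 alone, 19 of these 24 targets were lower with PI103 and 2 higher. Over all genes tested, 22.9% were called lower and 21.7% higher in that comparison. Between oxozeaenol and PD0325901, 1 was lower and 2 higher with oxozeaenol, where 15.1% of all genes were called lower and 13.4% higher.

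Upstream of ATF4, of 17 genes for eIF2 kinases, eIF2 phosphatase subunits, eIF2 and eIF2B, 9 or 10 were lower in each treatment and 2 or 3 higher. PPP1R15A (GADD34), the stress-induced phosphatase subunit, went from 536 ± 97.7 CPM in control to 118 ± 8.76 with PI103, 117 ± 13.3 with PD0325901 and 107 ± 29.6 with oxozeaenol. EIF2S2, the beta subunit of eIF2, went from 896 ± 64.6 to 325.0 ± 19.2 with PI103. EIF2AK3, the kinase PERK, was higher with PD0325901 (48.6 ± 15.9 against 22.5 ± 1.44) and not called with PI103 (26.7 ± 2.01). DNAJC3, an inhibitor of eIF2 kinases, was likewise higher with PD0325901 (205 ± 56.8 against 114 ± 19.3).

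Of 13 C/EBP and ATF/CREB relatives tested, 8 were lower and 1 higher with PI103, and 7 lower and 2 higher in each other treatment. CEBPB, a partner of ATF4 on its element, went from 161 ± 37.6 to 16.4 ± 2.82 with PI103 and 36.0 ± 14.3 with PD0325901. JDP2, a repressor of the AP-1 family, went from 1.96 ± 0.41 to 0.145 ± 0.0505 with PI103. CEBPD was lower with PI103 (1.12 ± 0.20 against 1.66 ± 0.17) and higher in the other 4 treatments, up to 7.05 ± 1.86 with PI103+PD0325901. CEBPA was higher with PD0325901 (105 ± 8.50 against 66.2 ± 8.57) and not called with PI103.

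Of 5 genes linked to CHOP, 2 were lower with PI103, 4 under PD0325901, 4 under oxozeaenol, 4 with PI103+oxozeaenol and 3 with PI103+PD0325901, and 1 was higher in each. PMAIP1 (NOXA), a promoter of mitochondrial cell death, went from 72.5 ± 13.8 to 14.2 ± 1.68 with PI103 and 7.59 ± 1.44 with PI103+PD0325901. TNFRSF10B, the death receptor DR5, went from 198 ± 9.08 to 92.1 ± 3.47 with PI103. BCL2L11 (BIM), another cell death promoter, rose from 16.2 ± 2.74 to 36.4 ± 1.26 with PI103 and 38.3 ± 3.79 with PI103+PD0325901. BBC3 (PUMA) was not called with PI103 (71.3 ± 4.24 against 72.9 ± 13.4) and was lower with oxozeaenol (37.1 ± 5.96).

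The chaperone arm of the endoplasmic reticulum is run by ATF6 and XBP1. Of its 15 genes, 3 were lower and 5 higher with PI103, 3 and 10 with PD0325901, 4 and 7 with oxozeaenol, 4 and 6 with PI103+oxozeaenol, and 3 and 11 with PI103+PD0325901. With PI103 both counts are near the shares over all genes, as are the lower counts with oxozeaenol and with PI103+oxozeaenol. CRELD2, an endoplasmic reticulum protein, rose from 23.7 ± 2.31 to 35.1 ± 2.93 with PI103 and 79.5 ± 14.2 with PD0325901, and the disulphide isomerase PDIA4 from 408 ± 29.9 to 686 ± 21.3 and 1096 ± 185. XBP1 itself (406 ± 29.7 in control, 129.6 ± 11.7 with PI103) and HERPUD1, of endoplasmic reticulum protein degradation (156 ± 15.9 and 50.2 ± 1.94), were lower in all 5 treatments. Between PI103 alone and PD0325901 alone, 12 of the 15 were lower with PI103 and 0 higher. The shares over all genes tested were 22.9% lower and 21.7% higher.

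Genes of mTORC1 and its TSC and GATOR regulators, on which DDIT4 and SESN2 act, made up a list of 16. With PD0325901 and with oxozeaenol 5 were lower, near the 29.9% and 26.1% of all genes called lower. With PI103 7 were lower (25.2% of all genes), with PI103+oxozeaenol 9 (27.9%) and with PI103+PD0325901 8 (32.6%). In each treatment 2 or 3 were higher, which is not above the 25.7% to 32.2% of all genes called higher. TSC1 rose from 28.0 ± 1.65 to 47.2 ± 1.89 with PI103 and TSC2 from 29.2 ± 2.54 to 41.7 ± 2.68. DEPTOR, an mTOR inhibitor with little mRNA here, went from 0.891 ± 0.158 to 0.133 ± 0.0715 with PI103, and MIOS, of GATOR2, from 124 ± 11.3 to 97.8 ± 0.958 with PI103 and 58.4 ± 9.45 with PD0325901.

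Close relatives of the 10 genes did not all move the same way. Of 11 relatives 5 were tested. SESN1, a sestrin, rose in all 5 treatments, from 41.2 ± 3.24 to 58.3 ± 3.75 with PI103 and 77.8 ± 9.28 with PD0325901. TRIB2, a tribbles pseudokinase, rose from 5.44 ± 0.84 to 6.78 ± 0.86 with PI103 and 11.1 ± 1.56 with PD0325901. CHAC2 fell from 26.7 ± 2.61 to 9.49 ± 1.10 with PI103 and was not called with oxozeaenol. ASNSD1 was at 107 ± 16.6 in control and 81.7 ± 8.28 with PI103.

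**Figure D5:**
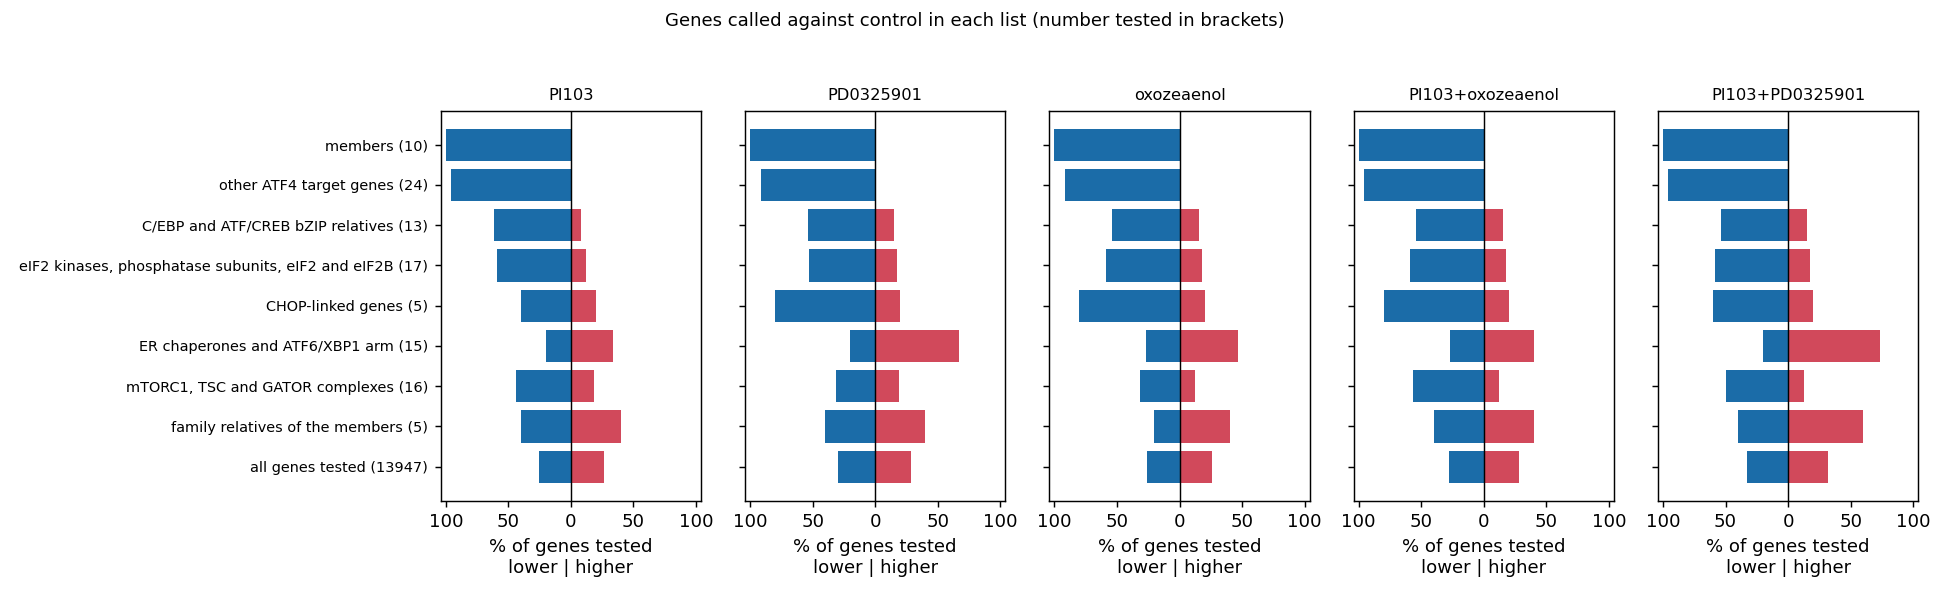
Share of the tested genes of each list called lower (bars to the left of 0) or higher (to the right) than control at an adjusted p under 0.05, in percent, for the 5 treatments; the number tested is in brackets. The members and the other ATF4 targets lie almost wholly to the left, while for the ER chaperones 10 of 15 lie to the right with PD0325901.

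By the root mean square difference of the log2 fold changes over the 5 treatments, taken among 10030 other genes with a mean of at least 5 CPM, the genes nearest to ATF4 were PRSS3 (0.0528), ARG2 (0.0864) and RPP40 (0.101), where the median distance was 1.00. Nearest to the median of the 10 genes were CTH (0.523), S100P (0.563) and PSAT1 (0.568), where the median distance was 3.53. Nearest to TRIB3 were MYH4 (2.57), ECM2 (2.74) and EGR1 (3.21), and the median distance was 7.56. These distances describe 5 comparisons that share their control libraries.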

How the data were processed

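RNA from 24 AGS cultures in 6 groups of 4 was sequenced after stranded mRNA library preparation, per the labels' protocols. The authors deposited whole-number read counts per gene symbol; the submitters' processing notes name the build GRCh38, and the aligner, counting program and annotation are not given in the sources used here. Tallies of unassigned reads (per library, 4.24% to 8.57% without a feature) stayed out of library sizes and tests.

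The 10 genes, the lists and the tests were chosen with earlier results of these data known. Genes were kept by edgeR's filterByExpr (13947 genes, 99.9886% of the counts), scaled by TMM and fitted over all 24 libraries with edgeR 4.0.16 in R 4.3.3 (1 coefficient per group, quasi-likelihood F test, two-sided). Benjamini-Hochberg adjustment ran over all genes within each of 15 comparisons, and not across comparisons. Counts-per-million (CPM) use TMM-scaled library sizes, except marker sums, which use unscaled totals. Fitted folds of genes near 0 counts depend on edgeR's prior count (0.125), so TRIB3 and INHBE were compared with control by summed counts with exact 95% intervals. Among treatments only their fitted folds are given. The standard errors (SE) of fitted folds are not the model's own. Each was worked back from the F test, as the error that would give the observed F for that fold. Where a fold depends on the prior count, so does its SE. The design gives 4 biological replicates. The p-values set a difference against an estimate of the spread within groups that all 6 groups share. The main fit has no term for the replicate number, and calls that changed with it as a block are named above.

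All 10 genes were named, with, from each list, the 2 lowest and 2 highest tested genes by mean log2 fold change over the treatments, and the 3 genes most like ATF4, TRIB3 and the median of the 10. Batch numbers in the labels pair the libraries: deviations from group means correlated at a mean of 0.12 over 60 same-number pairs and -0.04 over 180 others. Deviations from a group mean cancel within the group, so the second value largely follows from the first. Alternatives were no count filter, RLE size factors, DESeq2 1.42.0, a fit of only the groups compared, the replicate block, and leaving out each library. The fit was tested on simulated counts.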

Additional observations from a re-analysis of the deposited data

Results flagged for a closer look

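Of 60 sets of 4 libraries (10 genes in 6 groups), 10 held a library far from the other 3 by Dixon's test at the 95% level; chance gives about 1 in 20. In 6 of the 10 the library was replicate 2 of PI103+oxozeaenol and lay above the others. There DDIT4 stood at 32.6 CPM where the others lay between 2.95 and 3.45, TRIB3 at 0.284 (0.0178 to 0.0568), INHBE at 2.32 (0.0516 to 0.142), CHAC1 at 27.7 (5.17 to 6.91), SESN2 at 22.8 (12.3 to 13.8) and ASNS at 189.0 (47.2 to 53.7). With PI103, ATF3 stood at 89.2 in replicate 1 (59.2 to 63.2), CHAC1 at 6.14 in replicate 2 (3.15 to 3.58) and INHBE at 0.0162 in replicate 4, its only low value there (0.0461 to 0.0520), which is 1 count. With PI103+PD0325901, DDIT4 stood at 7.51 in replicate 2 (4.34 to 4.79).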

How the results depend on the processing

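Against control, all 10 genes kept their direction and their call in the 5 treatments under no count filter, RLE size factors, DESeq2, the fit of only the groups compared and the replicate block. Leaving out 1 library at a time ended 1 call, that of CHAC1 with PD0325901 given above. These differences chose the genes in the same libraries, so nothing is read from the calls that held. Among treatments, genes with small or noisy differences changed sign; the cause was not tested. INHBE between oxozeaenol and PD0325901 was 0.18 and became -0.38 with the replicate block, and SESN2 between the combinations was 0.02 and became -0.000934 with no count filter (log2). Over the fits that leave out 1 library, log2 fold changes ran as follows. Oxozeaenol against PD0325901: TRIB3 -1.60 to 0.17, INHBE -1.13 to 0.90 and ASNS -0.0199 to 0.41. PI103 against oxozeaenol: ATF3 -0.21 to 0.20. PI103+oxozeaenol against PI103: ATF3 -0.0294 to 0.22, TRIB3 -1.15 to 0.73 and SESN2 -0.27 to 0.0760. The same combination against oxozeaenol: ATF3 -0.13 to 0.26, and against the mean of its single agents: ATF3 -0.0583 to 0.16 and INHBE -2.87 to 0.74. The same against PI103+PD0325901: DDIT4 -0.72 to 1.32, INHBE -0.32 to 3.07 and SESN2 -0.22 to 0.13. PI103+PD0325901 against PI103: ATF3 -0.23 to 0.0210 and SESN2 -0.11 to 0.0150.

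Against PI103, PI103+oxozeaenol had 2 of the 10 genes called, which was 1 with no count filter, 1 in the fit of only the groups compared, and 1 to 3 with 1 library left out. Against oxozeaenol (8) it was 5 in the fit of only the groups compared, and against the mean of the single agents (0) it was 1 with the replicate block and 0 to 4 with 1 library left out. For PI103+PD0325901 against PI103 (2) it was 0 with no count filter, 5 in the fit of only the groups compared and 0 to 2 with 1 library left out. It was 1 to 3 between the combinations (2) and 0 to 1 between oxozeaenol and PD0325901 (0). The replicate block moved no other count of the 10 genes by over 1.5 times; it did so for 12 list counts among treatments, none of which is printed above. At 0 to 17 counts per library, TRIB3 in the groups with PI103 is limited by counting error.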
